A study of Homo sapiens with 12 samples.

Results

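A set of 40 genes whose products build ribosomes was followed in SU-DHL-4 cells, an established line of germinal center B-cell-like diffuse large B-cell lymphoma (DLBCL). The set was a list of gene symbols, drawn up by function with earlier results of these data known, and its rule uses no measured value. It holds nucleolar RNA-protein particles, nucleolar scaffold proteins, processing factors of both ribosomal subunits, and RNA polymerase I with its factors. All 40 genes were found among the 46863 gene symbols of the count table, and all 40 were among the 16835 genes that passed the filter on low counts. The cells, one line labelled as derived from a peritoneal effusion, were treated for 72 h with the vehicle DMSO, with 1 µM entospletinib (Ento, which blocks the spleen tyrosine kinase SYK), with 0.01 µM AZD5153 (AZD, a bivalent inhibitor of the BET bromodomain proteins), or with both agents at those concentrations (Ento+AZD). Each of the 4 groups had 3 libraries of poly-A RNA, numbered 1 to 3 as replicates in the sample titles.

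Ribosomes are assembled in the nucleolus, where RNA polymerase I transcribes the long precursor of the ribosomal RNAs. Box C/D and box H/ACA RNA-protein particles modify that precursor by methylation and pseudouridylation, and large processing complexes cut and fold it into the small and the large subunit. Many of these factors are known targets of the transcription factor MYC, which binds the E-box CACGTG, and growing lymphoma cells express them at high levels.

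The E-box stood in the promoter sequence of many of the listed genes. Promoters were taken from RefSeq (GRCh38.p14), from 250 bases before to 50 bases after the start of the gene, and 33 of the 40 genes had an entry. The letters CACGTG, which read the same on both strands, were present for 15 of these 33 genes (45.5%) and for 12.5% of 10473 tested genes. A gene counted if any of its promoters held them. Counted by promoter and not by gene, 7.26% of 35116 promoters of that length held them. NOLC1, POLR1E, RRP1B, RRS1, BOP1, NOP58 and RRP12 had no entry. A match is a run of letters and not a measured binding site. Windows of 6 genes are shown 5′ to 3′ on the strand of the gene, with the E-box in capitals, because they belong to 4 genes that rose and to the 2 nucleolar particle genes that fell under Ento+AZD.

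NOL6, chr9:33473894-33473923, minus strand: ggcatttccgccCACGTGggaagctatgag
NOP2, chr12:6568242-6568268, minus strand: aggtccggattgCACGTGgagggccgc
MYBBP1A, chr17:4555340-4555369, minus strand: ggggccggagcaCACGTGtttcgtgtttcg
BYSL, chr6:41921515-41921544, plus strand: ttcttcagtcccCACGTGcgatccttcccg
FBL, chr19:39846356-39846385, minus strand: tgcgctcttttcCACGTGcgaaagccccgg
GAR1, chr4:109815781-109815810, plus strand: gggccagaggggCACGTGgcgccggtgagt

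In the window of FBL the E-box began 7 bases past the annotated start, in that of NOL6 14 bases and in that of NOP2 36 bases. The 6 genes were picked by their calls among genes that held the letters. Their windows therefore cannot show whether the E-box goes with a rise or a fall. NOP10 and NOP14, called in no comparison, held the letters too.

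Libraries held 18121993 to 24675830 counts, and the 40 genes together took 96384 to 137053 of them, or 0.455 to 0.653% of a library. The B-cell markers of the line summed to 4849 to 8536 CPM (counts scaled to a common library size) in every library. T-cell markers summed to 17.3 to 19.8 CPM in DMSO, 14.3 to 19.4 in Ento, 6.83 to 8.57 in AZD and 5.98 to 7.45 in Ento+AZD, so that the groups with AZD lay below the others. Almost all of this was CD247, with CD3D and CD2 at 0 in all 12 libraries, and the part of this shift in the results was not tested. The myeloid, fibroblast and epithelial markers summed to at most 2.73, 0.186 and 0.11 CPM. The mitochondrial share of counts was 1.72 to 1.96% in DMSO, 1.77 to 2.23% in Ento and 1.69 to 2.19% in AZD. In Ento+AZD this share was 2.27 to 2.74%, and its part in the results was not tested. Levels below are CPM with library sizes scaled by the trimmed mean of M-values (TMM). In bulk RNA, fewer cells of a kind and less RNA per cell cannot be told apart, and a change in the total RNA of all cells would not be seen.

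To order the 40 genes in DMSO, CPM was divided by the joined length of all annotated exons of a gene. By this measure nucleolin (NCL) and fibrillarin (FBL) stood at the top, at 128 ± 20.6 and 122 ± 13.4 CPM per kilobase (mean ± SD, n = 3), and their values overlapped. Nucleophosmin (NPM1) followed at 71.7 ± 10.5 CPM per kilobase without overlapping either neighbour. The lowest were UTP15 at 3.17 ± 0.245 and DDX10 at 2.99 ± 0.308 CPM per kilobase, and 36 of the 39 neighbouring genes in this order overlapped. The order and the overlaps depend on the length used. The longest annotated transcript is shorter, at 4237 of 8919 bases for NCL, 1400 of 2138 for FBL and 6887 of 18059 for DDX10. The coefficient of variation over the 3 DMSO libraries had a median of 14.6% and ran from 1.72% for NOP58 to 41.8%.

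The libraries of one group were not alike, and the genes moved together within a library. Relative to the DMSO mean, the median log2 level of the 40 genes was -0.19, 0.20 and 0.02 in DMSO replicates 1 to 3, 0.17, 0.31 and 0.27 in Ento, 0.21, 0.33 and 0.48 in AZD, and 0.23, -0.01 and 0.38 in Ento+AZD. Within DMSO, 33 of 40 genes were highest in replicate 2, whereas within Ento+AZD 38 of 40 were lowest in replicate 2. DMSO replicate 1 lay as far below the DMSO mean as replicate 2 lay above it, with 4 and 35 of 40 genes above the mean. Counts of genes called against DMSO are given with and without these 3 libraries for the groups they enter. The E-box split, the correlations with GC content and the counts of groups that do not overlap use all libraries.

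**Figure D1:**
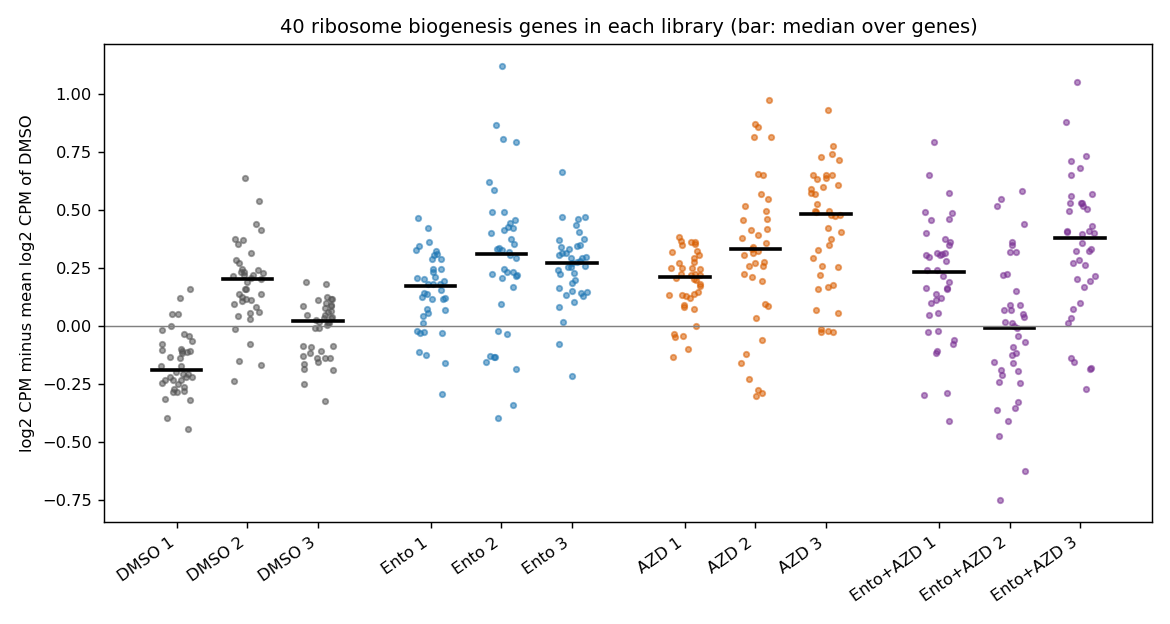
Each point is one of the 40 genes in one library, plotted as log2 CPM minus the mean log2 CPM of that gene in DMSO, and each bar is the median over the genes. The bar of DMSO replicate 2 lies at 0.20 and that of Ento+AZD replicate 2 at -0.01, below the 0.23 and 0.38 of the other Ento+AZD libraries.

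The first question was how each agent changed these genes. With AZD, 21 of 40 genes were overexpressed against DMSO at an adjusted p under 0.05 and none was underexpressed, where 9.57% of all tested genes were called higher and 12.7% lower. With Ento, 6 of 40 were overexpressed and none underexpressed, against 4.66% of all genes higher and 3.66% lower. With Ento+AZD, 13 were overexpressed and 3 underexpressed, against 19.2% and 20.8% of all genes. The changes were modest. The median log2 fold change of the 40 genes was 0.26 with Ento, 0.31 with AZD and 0.19 with Ento+AZD, against 0.01 over all genes in each comparison. No gene of the set passed the 2-fold threshold for differentially expressed genes (DEGs) in any of these comparisons, which 1.63%, 3.19% and 8.32% of all genes did. The 3 comparisons share the DMSO libraries and are therefore not independent of each other.

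**Figure D2:**
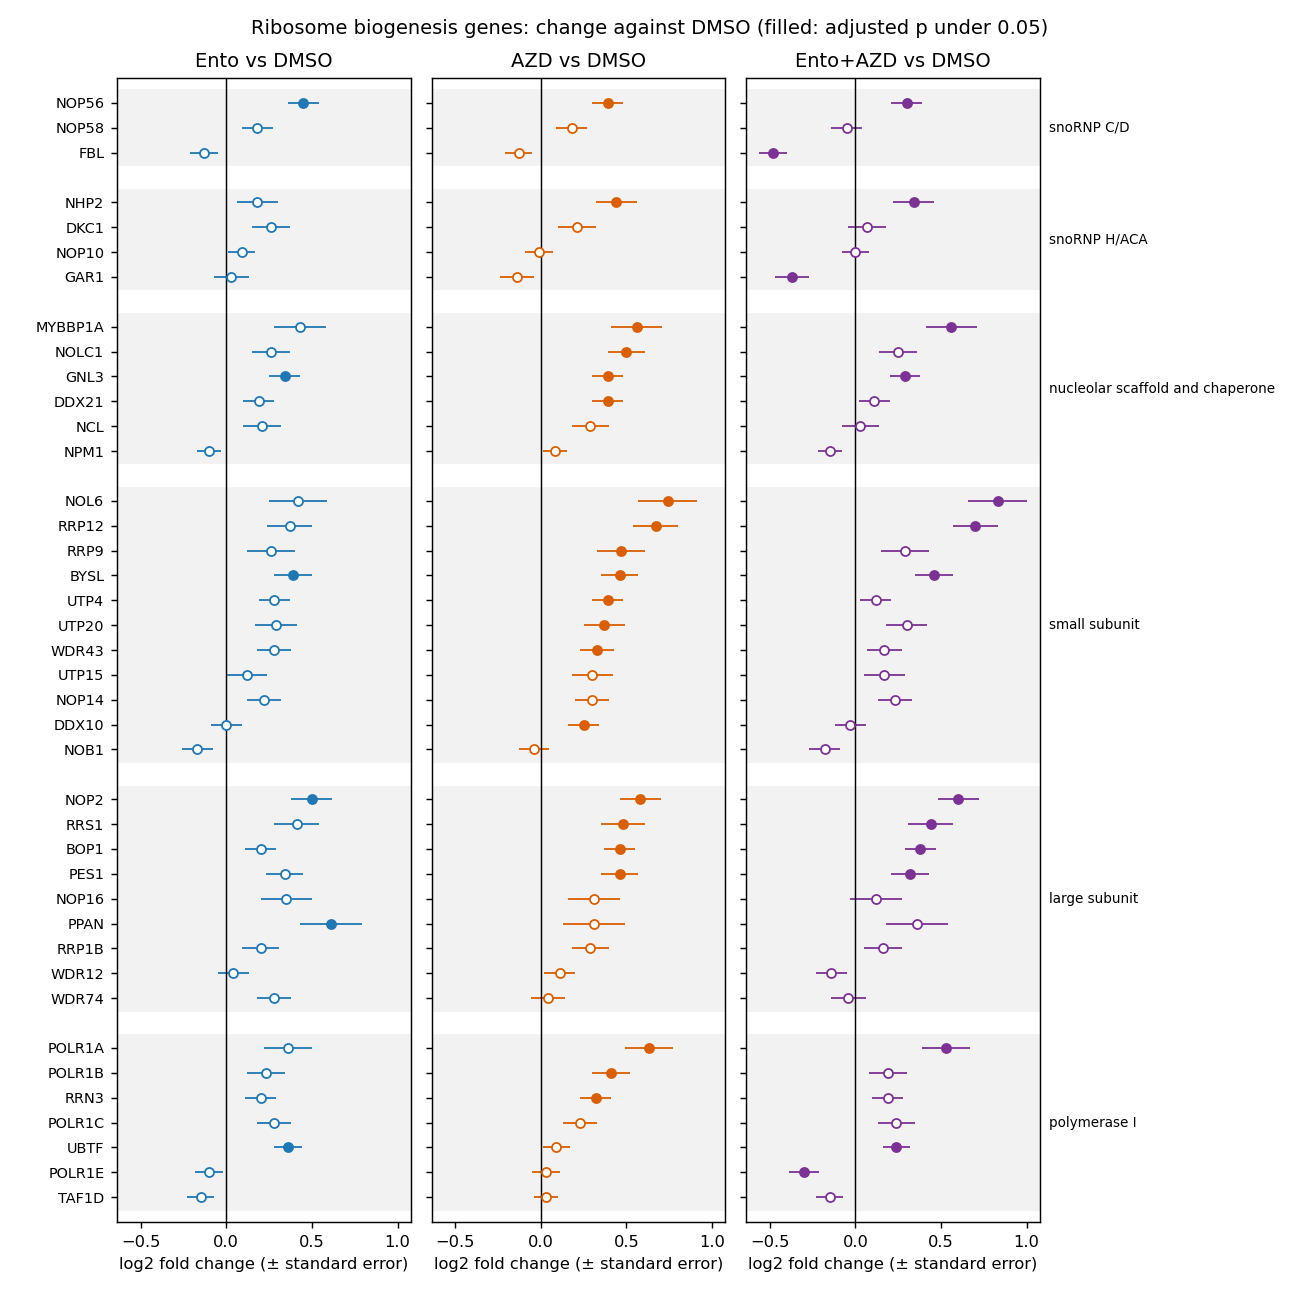
Log2 fold change against DMSO (x axis, ± standard error of the fit) for each of the 40 genes, arranged by role, with filled symbols where the adjusted p was under 0.05. Filled symbols number 6 with Ento and 21 with AZD, all to the right of 0, and 13 to the right and 3 to the left with Ento+AZD.

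All calls and adjusted p-values came from edgeR's quasi-likelihood test, adjusted after Benjamini-Hochberg over all 16835 genes, with treatment group and replicate number in the model. The replicate number carried much of the calling, for these genes and for all genes. Without it, 0 of 40 genes were called with Ento, 0 with AZD, and 3 higher (NOL6, RRP12 and BYSL) and 0 lower with Ento+AZD. Of all genes, 0.154% were then called higher and 0.0594% lower with Ento, and 0.624% and 1.31% with AZD. With Ento+AZD it was 6.46% and 7.79%. Over replicate pairs, the median log2 ratio of the 40 genes to DMSO was 0.36, 0.11 and 0.27 for Ento in pairs 1 to 3, and 0.37, 0.14 and 0.48 for AZD. For Ento+AZD it was 0.40, -0.20 and 0.38, with 33, 6 and 33 of 40 genes higher. In pair 2 the combination thus lay below DMSO for most genes.

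Leaving out Ento+AZD replicate 2 gave 25 higher and 1 lower with Ento+AZD, where 18.4% and 18.5% of all genes were called. Leaving out DMSO replicate 2 gave 20 higher with Ento and 26 with AZD, where 3.94% and 8.78% of all genes were. With Ento+AZD that fit gave 21 higher and 1 lower, against 15.2% and 17.5% of all genes. In the other direction, the count with AZD fell to 6 without AZD replicate 3 and to 12 without AZD replicate 2. The share of all genes called higher fell as well, from 9.57% to 2.54% and 3.8%. The count with AZD was 13 without DMSO replicate 1 and 13 without DMSO replicate 3, against 8.87% and 5.54% of all genes. The order of the treatments by this count was not stable. Without all libraries of replicate 2 it was 25 with AZD and 27 with Ento+AZD, against 5.87% and 14.4% of all genes. Without those of replicate 3 it was 2 and 3, against 1.94% and 12.7%. The count with Ento was 0, 1 and 2 without Ento replicates 1, 2 and 3, against 1.7%, 1.5% and 2.9% of all genes. It was 2 and 1 without DMSO replicates 1 and 3, against 3.92% and 3.39%. Without Ento+AZD replicate 2 it rose to 15, against 5.53%. With Ento+AZD, 5 genes were called higher without its replicate 1 and 5 without its replicate 3, against 13.4% and 13% of all genes. Without DMSO replicates 1 and 3 the count was 6 and 7, against 17.7% and 17%.

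**Figure D3:**
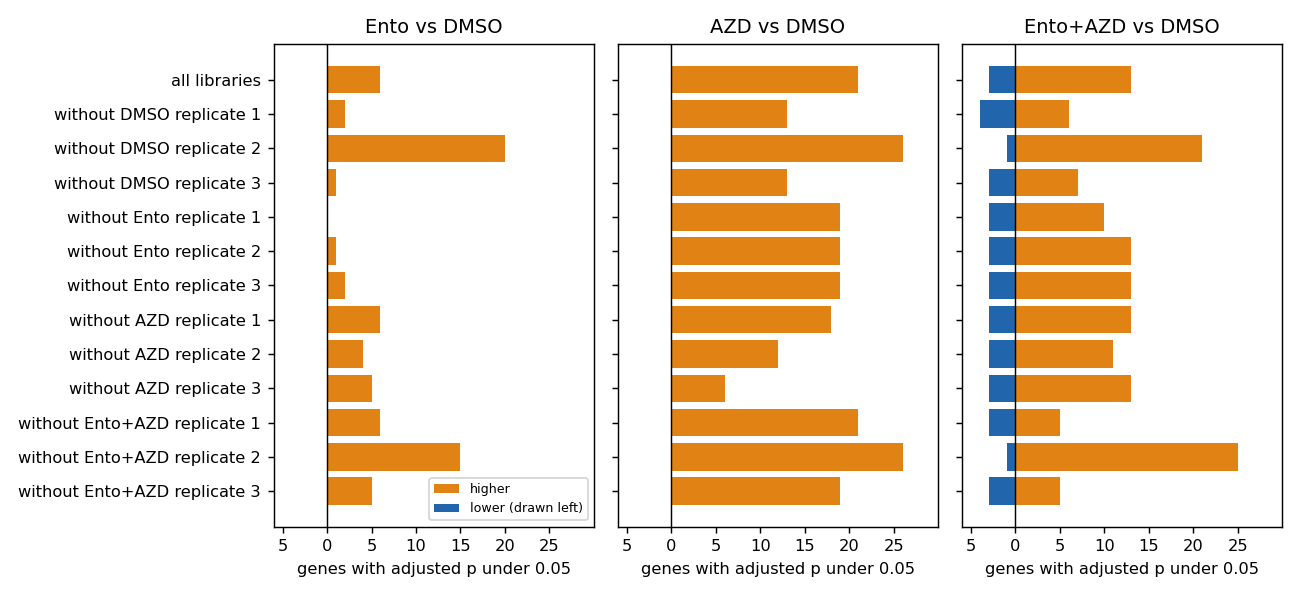
Number of the 40 genes with an adjusted p under 0.05 (x axis, higher to the right of 0 and lower to the left) for each comparison with DMSO, with all libraries and with each library left out in turn. For Ento+AZD the bars run from 5 without its replicate 1 or 3 to 25 without its replicate 2.

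Among the core proteins of the box C/D particle, fibrillarin fell with the combination while NOP56 rose with each treatment. FBL, the methyltransferase of the particle (chr19:39834458-39846379), stood at 242, 246 and 293 CPM in DMSO, 238, 197 and 284 in Ento, 251, 210.2 and 255 in AZD, and 195, 154 and 215 in Ento+AZD. All Ento+AZD libraries lay below all DMSO libraries. The log2 fold change was -0.48 ± 0.08 (standard error; adjusted p = 0.000393, edgeR), against -0.13 ± 0.08 with Ento (adjusted p = 0.335) and -0.13 ± 0.08 with AZD (adjusted p = 0.278). FBL was also lower in Ento+AZD than in Ento (log2 fold change -0.35, adjusted p = 0.00802) and than in AZD (-0.35, adjusted p = 0.0138), in all 3 pairs of each, although the groups overlapped. The first of these calls was lost without Ento replicate 3, and the second without AZD replicate 1 or 2 or Ento+AZD replicate 2. Its fall against DMSO remained called in all other fits except that without the replicate number (adjusted p = 0.0595). NOP56, a scaffold protein of the particle, had log2 fold changes of 0.45 with Ento, 0.39 with AZD and 0.30 with Ento+AZD, with adjusted p of 0.0103, 0.00958 and 0.0186. These calls were lost without Ento replicate 1, without AZD replicate 3, and without DMSO or Ento+AZD replicate 1 or 3, respectively. With Ento+AZD, NOP56 was higher in 2 of 3 pairs and overlapped DMSO, at 155 CPM in replicate 2 beside 161 in DMSO. Its partner NOP58 (chr2:202265736-202303661) read 129, 133 and 129.7 CPM in DMSO, 142, 139 and 166 in Ento, 150, 139 and 156 in AZD and 129, 101 and 152 in Ento+AZD. Both single-agent groups of NOP58 lay above DMSO, but no comparison was called, and Ento+AZD overlapped DMSO (log2 fold change -0.05 ± 0.09).

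In the box H/ACA particle, which carries out pseudouridylation, the members did not move alike. GAR1 (chr4:109815510-109824740) stood at 23.5, 26.5 and 26.2 CPM in DMSO, 26.2, 23.1 and 29.1 in Ento, 23.6, 20.7 and 25.2 in AZD and 20.6, 16.4 and 22.3 in Ento+AZD. The combination lay below every DMSO and every Ento library. The log2 fold change was -0.37 ± 0.10 against DMSO (adjusted p = 0.00913) and -0.40 ± 0.10 against Ento (adjusted p = 0.0117). Both calls were lost without Ento+AZD replicate 2, its lowest library, the call against DMSO also without DMSO replicate 2, and that against Ento also without Ento replicate 1 or 3. NHP2 rose with AZD (log2 fold change 0.44, adjusted p = 0.0196) and with Ento+AZD (0.34, adjusted p = 0.0369). The 2 gene copies annotated as pseudogenes of NHP2 held counts equal to 26.4% of its own, so its value is uncertain where reads could fall on either. DKC1, the pseudouridine synthase, was called in no comparison, with log2 fold changes of 0.26, 0.21 and 0.07 against DMSO. NOP10 (chr15:34339159-34343180) was the flattest, at 46.0, 38.1 and 43.3 CPM in DMSO, 45.8, 38.6 and 52.1 in Ento, 46.0, 36.1 and 44.4 in AZD and 46.0, 36.5 and 45.4 in Ento+AZD. Its libraries followed the replicate number, with replicate 2 lowest in each group, and its Ento+AZD log2 fold change was 0.00 ± 0.08.

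Of the 6 nucleolar scaffold proteins and chaperones, 4 rose with AZD, 1 with Ento and 2 with Ento+AZD. MYBBP1A, a nucleolar MYB-binding protein that takes part in rRNA processing (chr17:4538897-4555386), stood at 61.1, 121 and 78.3 CPM in DMSO, 94.4, 152 and 98.5 in Ento, 93.8, 152 and 131 in AZD and 114, 113 and 138 in Ento+AZD. DMSO replicate 2 overlapped each treated group, and the 2 other DMSO libraries lay below all treated libraries. Its log2 fold change was 0.56 ± 0.15 with AZD (adjusted p = 0.0175) and 0.56 ± 0.15 with Ento+AZD (adjusted p = 0.00909), and 0.43 ± 0.15 with Ento (adjusted p = 0.0933). The call with AZD was lost without DMSO replicate 1 or 3 or AZD replicate 2 or 3, and that with Ento+AZD without DMSO replicate 1 or Ento+AZD replicate 1 or 3. GNL3, the nucleolar GTPase nucleostemin, rose by log2 fold changes of 0.34, 0.39 and 0.29 with Ento, AZD and Ento+AZD (adjusted p = 0.0284, 0.00778 and 0.0189). NOLC1, a chaperone of the nucleolar particles, and the RNA helicase DDX21 were called with AZD (log2 fold change 0.50, adjusted p = 0.00697, and 0.39, adjusted p = 0.0102), and with Ento+AZD their log2 fold changes were 0.25 and 0.11, not called.

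NCL and NPM1, among the 3 highest per kilobase in DMSO, were called in no comparison. NCL (chr2:231453531-231483641) read 938, 1299 and 1178 CPM in DMSO, 1230.5, 1267 and 1459 in Ento, 1248, 1366 and 1570.1 in AZD and 1164, 951 and 1372 in Ento+AZD. DMSO replicate 2 overlapped each treated group, and the log2 fold changes were 0.21 ± 0.11, 0.29 ± 0.11 and 0.03 ± 0.11, with an adjusted p of 0.0731 for AZD. NPM1 had log2 fold changes of -0.10, 0.08 and -0.15.

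Processing factors of the small subunit gave the highest share with AZD, 8 of 11 genes, and 1 of 11 with Ento and 3 of 11 with Ento+AZD. NOL6, a component of the small subunit processome (chr9:33461353-33473930), stood at 28.6, 46.1 and 29.8 CPM in DMSO, 39.4, 59.0 and 40.5 in Ento, 42.4, 67.0 and 64.9 in AZD and 59.0, 50.9 and 70.5 in Ento+AZD. All Ento+AZD libraries lay above all DMSO libraries, whereas AZD replicate 1 lay below DMSO replicate 2. The log2 fold change was 0.83 ± 0.17 with Ento+AZD (1.77-fold, adjusted p = 0.00163), the highest of the 40 genes, 0.74 ± 0.17 with AZD (adjusted p = 0.00773) and 0.42 ± 0.17 with Ento (adjusted p = 0.145). The call with AZD was lost without AZD replicate 3. RRP12, which takes part in the export of the pre-ribosomal subunits (chr10:97356358-97426076), read 29.1, 43.7 and 31.6 CPM in DMSO, 42.4, 51.4 and 40 in Ento, 44.6, 62.0 and 58.6 in AZD and 53.8, 50.1 and 63.1 in Ento+AZD. Both AZD and Ento+AZD lay wholly above DMSO. Its log2 fold change was 0.67 ± 0.13 with AZD (adjusted p = 0.00332) and 0.70 ± 0.13 with Ento+AZD (adjusted p = 0.000816), and 0.37 ± 0.13 with Ento (adjusted p = 0.0935). Of the 49 calls of these genes over the 5 comparisons, those of NOL6 and RRP12 with Ento+AZD against DMSO were the 2 that held in all 22 alternative fits.

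**Figure D4:**
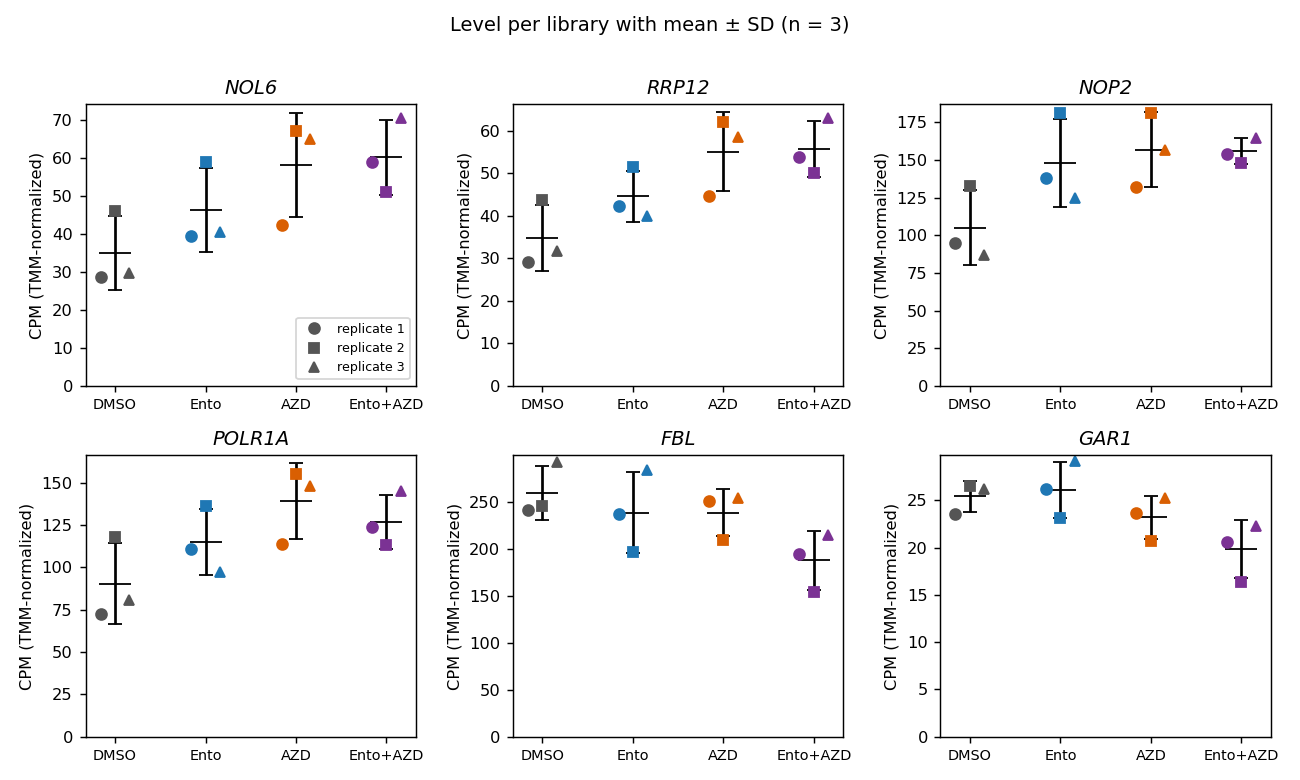
CPM of 6 genes in each library (circles, squares and triangles for replicates 1, 2 and 3), with the mean and SD of each group (n = 3) and axes that start at 0. NOL6, RRP12 and NOP2 in Ento+AZD sit above every DMSO library, FBL and GAR1 below every DMSO library, and POLR1A overlaps DMSO replicate 2.

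The remaining small subunit factors rose with AZD or were not called. BYSL, needed for maturation of the small subunit, rose with Ento (log2 fold change 0.39, adjusted p = 0.0415), AZD (0.46, adjusted p = 0.0094) and Ento+AZD (0.46, adjusted p = 0.00437). UTP4, UTP20, WDR43 and RRP9 rose with AZD, with log2 fold changes of 0.39, 0.37, 0.33 and 0.47, and were not called with the combination (0.12, 0.30, 0.17 and 0.29). UTP15, NOP14 and the endonuclease NOB1 were called in no comparison. NOB1 (chr16:69741871-69754926), which makes the last cut of the small subunit RNA, read 88.7, 94.8 and 104 CPM in DMSO, 78.1, 87.5 and 90.7 in Ento, 101, 85.5 and 93.8 in AZD and 90.5, 76.2 and 86.9 in Ento+AZD. Every treated group overlapped DMSO, and with Ento its log2 fold change was the lowest of the 40 genes, -0.17 ± 0.09 (adjusted p = 0.265).

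The RNA helicase DDX10 (chr11:108665058-108940999) was called in opposite directions. It read 47.7, 55.8 and 58.3 CPM in DMSO, 52.5, 52.5 and 56.8 in Ento, 61.9, 61.4 and 69.8 in AZD and 52.7, 45.5 and 60.3 in Ento+AZD. All AZD libraries lay above all DMSO and all Ento+AZD libraries. DDX10 was higher with AZD than with DMSO (log2 fold change 0.25 ± 0.09, adjusted p = 0.0457) and lower with Ento+AZD than with AZD (-0.29 ± 0.09, adjusted p = 0.0432). Both values were close to the threshold and both comparisons use the AZD libraries. The calls were lost in 16 and 14 of 22 alternative fits. The first was lost without any one library other than DMSO replicate 2 and Ento+AZD replicate 2, and the second without any one library other than those of DMSO.

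Among factors of the large subunit, NOP2 rose with each treatment. NOP2, an RNA methyltransferase (chr12:6556863-6568691), stood at 95.2, 133 and 86.8 CPM in DMSO, 138, 181 and 125 in Ento, 132, 181 and 157 in AZD and 154, 148 and 165 in Ento+AZD. DMSO replicate 2 overlapped Ento and AZD but lay below all Ento+AZD libraries. The log2 fold changes were 0.50 ± 0.12, 0.58 ± 0.12 and 0.60 ± 0.12, with adjusted p of 0.0199, 0.00439 and 0.00142. The calls with AZD and with Ento+AZD were lost in no other fit than that without the replicate number (adjusted p = 0.107 and 0.0523), and the call with Ento was lost without DMSO replicate 1 or 3 or Ento replicate 1 or 2. BOP1 and PES1, partners in the complex that also holds WDR12, rose with AZD (0.46, adjusted p = 0.00316, and 0.46, adjusted p = 0.0102) and with Ento+AZD (0.38, adjusted p = 0.00394, and 0.32, adjusted p = 0.0343). WDR12 itself was called in no comparison and had log2 fold changes of 0.04, 0.11 and -0.14 with Ento, AZD and Ento+AZD. RRS1 rose with AZD (0.48, adjusted p = 0.0170) and Ento+AZD (0.44, adjusted p = 0.0143). NOP16 and RRP1B were called nowhere, with log2 fold changes of 0.35, 0.31 and 0.12 and of 0.20, 0.29 and 0.16.

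PPAN and WDR74 were called in comparisons with Ento. PPAN (chr19:10106362-10112012), a factor of large subunit maturation, had the highest log2 fold change of the 40 genes with Ento. It stood at 7.07, 13.8 and 7.03 CPM in DMSO, 12.2, 19.3 and 10.7 in Ento, 8.60, 13.9 and 11.3 in AZD and 11.4, 11 and 11.6 in Ento+AZD. In Ento it was higher in all 3 pairs, though DMSO replicate 2 lay above 2 Ento libraries (log2 fold change 0.61 ± 0.18, adjusted p = 0.0467). The call was lost in 11 of 22 alternative fits, among them those without any one Ento library, DMSO replicate 1 or 3, or AZD replicate 2. PPAN shares exons with the readthrough gene PPAN-P2RY11 and with P2RY11, both of which held 0 counts. How reads on shared exons were counted is not given in the sources used here. The PPAN counts may hold reads of these genes or may leave out reads on the shared exons. WDR74 (chr11:62832342-62841809) read 27.3, 35.1 and 33.9 CPM in DMSO, 35.5, 40.8 and 40.4 in Ento, 29.1, 34.1 and 35.9 in AZD and 33.2, 27.9 and 32.2 in Ento+AZD. All Ento libraries lay above all DMSO and all Ento+AZD libraries. Its log2 fold change was 0.28 ± 0.10 with Ento against DMSO (adjusted p = 0.103) and -0.32 ± 0.10 for Ento+AZD against Ento (adjusted p = 0.0413), and the latter was lost without any one of the Ento libraries, AZD replicate 2 or 3, or Ento+AZD replicate 2 or 3.

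The polymerase I genes split by subunit and factor. POLR1A, the largest catalytic subunit (chr2:86020216-86106155), stood at 72.6, 118 and 80.8 CPM in DMSO, 111, 136 and 97.4 in Ento, 114, 155 and 148 in AZD and 124, 113 and 145 in Ento+AZD. DMSO replicate 2 again reached into each treated group. The log2 fold change was 0.63 ± 0.14 with AZD (adjusted p = 0.00675) and 0.53 ± 0.14 with Ento+AZD (adjusted p = 0.00888), and 0.36 ± 0.14 with Ento (adjusted p = 0.131). The call with Ento+AZD was lost without its replicate 1 and without its replicate 3. POLR1B, the second catalytic subunit (chr2:112541915-112579818), read 46.0, 63.9 and 60.0 CPM in DMSO, 64.5, 65.1 and 69.2 in Ento, 71.6, 70.1 and 83.2 in AZD and 64.0, 55.7 and 74.6 in Ento+AZD. Both single-agent groups lay above DMSO and the combination overlapped it. POLR1B was called with AZD (log2 fold change 0.41 ± 0.11, adjusted p = 0.0148) but not with Ento (0.23 ± 0.11, adjusted p = 0.193) or Ento+AZD (0.19 ± 0.11, adjusted p = 0.162), and its call with AZD was lost without DMSO replicate 1 or AZD replicate 3.

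POLR1E, a peripheral subunit, fell with the combination by 0.30 on the log2 scale against DMSO (adjusted p = 0.0122) and by 0.33 against AZD (adjusted p = 0.0228). Its values were 53.1, 65.8 and 64.9 CPM in DMSO, 60.9, 58.4 and 68.9 in AZD and 49.8, 45.8 and 53.5 in Ento+AZD, so that the combination lay below all AZD libraries and overlapped DMSO replicate 1. Both calls were lost without Ento+AZD replicate 2, the first also without DMSO replicate 2 and the second without any one AZD library or Ento+AZD replicate 3. UBTF, the factor that binds ribosomal gene chromatin (chr17:44205033-44221626), was called higher than DMSO with Ento and with Ento+AZD. It read 229.7, 277 and 208 CPM in DMSO, 300.4, 321 and 289 in Ento, 229.7, 283 and 246 in AZD and 292, 275 and 272 in Ento+AZD. All Ento libraries lay above DMSO, whereas Ento+AZD overlapped DMSO and was higher in 2 of 3 pairs. The log2 fold change was 0.36 ± 0.08 with Ento (adjusted p = 0.0183), 0.09 ± 0.08 with AZD (adjusted p = 0.480) and 0.24 ± 0.08 with Ento+AZD (adjusted p = 0.0330). Between Ento+AZD and AZD it was 0.15 ± 0.08 and not called (adjusted p = 0.253, edgeR). The Ento call was lost without any one Ento library and without DMSO replicate 3, and the Ento+AZD call without DMSO replicate 1 or 3, Ento replicate 1 or Ento+AZD replicate 1 or 3. RRN3, which links polymerase I to its promoter, rose with AZD (0.32, adjusted p = 0.0171), but its 4 annotated pseudogene copies held counts equal to 41.7% of its own. POLR1C, a subunit shared with polymerase III, and TAF1D, of the promoter selectivity factor, were called in no comparison, with log2 fold changes of 0.28, 0.23 and 0.24 and of -0.15, 0.03 and -0.15.

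Calls of the genes given by fold change alone also rested on few libraries. With AZD, the calls of NOLC1, GNL3 and BOP1 held with any one library left out. DDX21, UTP4 and PES1 lost theirs without AZD replicate 3, BYSL without AZD replicate 2 or 3, and RRN3 without DMSO replicate 3 or AZD replicate 2 or 3. NHP2, RRP9 and RRS1 lost it without DMSO replicate 1 or 3 or AZD replicate 2 or 3, WDR43 without these or AZD replicate 1, and UTP20 without these, AZD replicate 1, any Ento library or Ento+AZD replicate 3. With Ento+AZD, BYSL and BOP1 held with any one library left out. GNL3 and RRS1 lost their calls without DMSO replicate 1 or 3 or Ento+AZD replicate 1 or 3, and NHP2 and PES1 without these, Ento replicate 1 or AZD replicate 2. GNL3, RRS1, NHP2 and PES1 were higher than DMSO in 2 of 3 pairs and overlapped it, and BYSL and BOP1 were higher in all 3. With Ento, GNL3 lost its call without DMSO replicate 1 or 3 or any Ento library, and BYSL without these, AZD replicate 2 or 3, or Ento+AZD replicate 3.

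The second question was whether the combination differed from each agent alone. Against Ento, 0 genes were higher and 3 lower in Ento+AZD (FBL, GAR1 and WDR74), where 8.27% of all genes were called higher and 12.2% lower. Against AZD, 0 were higher and 3 lower (FBL, DDX10 and POLR1E), where 5.85% and 6.04% of all genes were called. By DESeq2 the counts were 1 higher and 3 lower against Ento, where 7.63% and 10.9% of all genes were called. Against AZD they were 0 higher and 5 lower, where 5.51% and 6.16% of all genes were. At an unadjusted p under 0.05, 8 of the 40 genes passed against Ento, where 34.2% of all genes did, and 12 of the 40 against AZD, where 28.0% did, which are shares below and near that of all genes. The median log2 fold change was -0.04 against Ento and -0.13 against AZD, beside -0.01 and 0.00 over all genes. Without Ento+AZD replicate 2 both medians turned positive, at 0.05 and 0.02. The pairs were unlike: against Ento the median log2 ratio was 0.01, -0.29 and 0.08 in pairs 1 to 3, and against AZD 0.01, -0.34 and -0.09. Without Ento+AZD replicate 2, 6 genes were higher and 1 lower against Ento, where 7.4% and 9.72% of all genes were, and 0 were called in either direction against AZD. Against AZD, leaving out AZD replicate 1 or 2 also gave 0 calls. No gene passed 2-fold in either comparison, against 3.35% and 1.68% of all genes.

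The third question was whether the effect of AZD changed when Ento was present, tested as an interaction term on the log2 scale. By edgeR's quasi-likelihood test, 0 of 40 genes and 0 of 16835 genes were called, and the lowest adjusted p of the set was 0.444. At an unadjusted p under 0.05, 24 of the 40 genes and 9.81% of all genes passed. The term was below 0, meaning that the combination lay under the sum of both single-agent log2 changes, for 39 of 40 genes and for 52.0% of all genes. NOB1 was the exception (0.02 ± 0.13), and the median was -0.36, against -0.01 over all genes. The lowest terms were -0.57 ± 0.25 for PPAN and -0.56 ± 0.13 for UTP4. DESeq2 called 0 of the 40 genes and 7 of all genes, and the fit with no filter on low counts called 11 of the 40 lower, where 0.508% of 30891 genes were called lower. Without DMSO replicate 2, 9 of the 40 were called lower, where 0.875% of 17260 genes were. Without Ento+AZD replicate 2, 0 were called and the median term was -0.22, and without DMSO replicate 2 it was -0.51. Without DMSO replicate 1, 0 were called and the median term was -0.31. The genes share libraries, and DMSO replicate 2 and Ento+AZD replicate 2 enter every term.

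**Figure D5:**
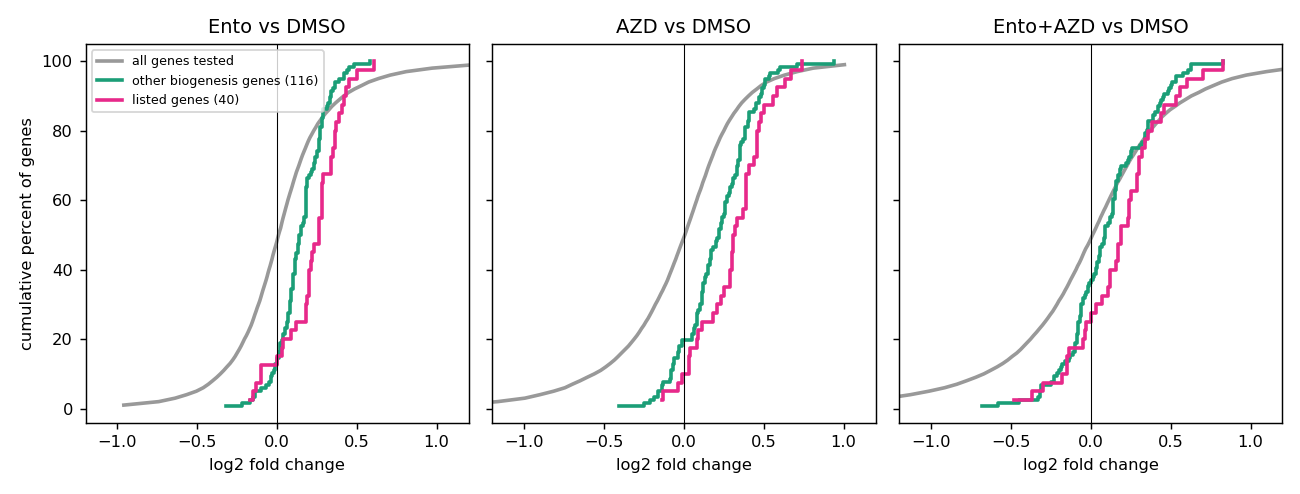
Cumulative percent of genes (y axis) by log2 fold change against DMSO (x axis) for the 40 genes, 116 other ribosome biogenesis genes and all tested genes. The curve of the 40 genes lies to the right of all genes with medians of 0.26, 0.31 and 0.19, and reaches further to the left with Ento+AZD, down to -0.48.

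A wider list of 116 other ribosome biogenesis genes that passed the filter was read beside the 40. With Ento, 12 were overexpressed and 1 underexpressed (10.3% and 0.862%, against 4.66% and 3.66% of all genes). With AZD it was 45 and 1 (38.8% and 0.862%, against 9.57% and 12.7%). With Ento+AZD it was 28 and 10 (24.1% and 8.62%, against 19.2% and 20.8%). The median log2 fold changes were 0.14, 0.22 and 0.09. The smallest p-values with Ento+AZD belonged to LSG1, a GTPase that releases export factors from the large subunit (0.61, adjusted p = 0.000488), NOP9 (0.58, adjusted p = 0.000574) and UTP3 (0.39, adjusted p = 0.000747) among genes that rose. Among genes that fell they belonged to POLR1H, a small polymerase I subunit (-0.68, adjusted p = 0.000102), EFL1, a GTPase of large subunit maturation (-0.58, adjusted p = 0.000177), and RSL24D1 (-0.32, adjusted p = 0.00866). Against the single agents, Ento+AZD had 3 higher and 7 lower than Ento (2.59% and 6.03%, against 8.27% and 12.2% of all genes). Against AZD it had 0 higher and 5 lower (0% and 4.31%, against 5.85% and 6.04%). All 4 shares lay below those of all genes.

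MYC mRNA was called in no comparison. It read 440.4, 607 and 451 CPM in DMSO, 427, 582 and 386 in Ento, 491, 639 and 459 in AZD and 471, 507 and 410.2 in Ento+AZD. All groups overlapped, and replicate 2 was the highest in each. The log2 fold changes against DMSO were -0.11 ± 0.08, 0.08 ± 0.08 and -0.10 ± 0.08, with adjusted p of 0.424, 0.476 and 0.347.

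The E-box was read beside the calls as a description. With AZD, 11 of the 15 genes whose promoter held CACGTG were overexpressed, and 6 of the 18 whose promoter did not, with median log2 fold changes of 0.39 and 0.27. With Ento, 3 of 15 and 3 of 18 were overexpressed (medians 0.28 and 0.22). With Ento+AZD, 6 of 15 were over- and 2 underexpressed, FBL and GAR1, and 4 of 18 were over- and 0 underexpressed (medians 0.29 and 0.15).

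The size of the change also moved with the base composition of the transcript. Across the 40 genes, log2 fold change and GC content had a Pearson r of 0.46 with Ento, 0.40 with AZD and 0.51 with Ento+AZD, against 0.10, 0.01 and 0.08 across 14584 genes with a value. These points share the same libraries and are not independent. The 20 genes of higher GC content had medians of 0.35, 0.45 and 0.33, and the 20 of lower GC content 0.20, 0.30 and 0.12. With an offset for GC content in the model, 4 genes were called higher with Ento, 25 with AZD and 17 with Ento+AZD. Of all 14584 genes, 4.32%, 15.9% and 22.9% were, against 4.66%, 9.57% and 19.2% in the main fit. The median log2 fold change over all genes was then 0.05 with AZD and 0.04 with Ento+AZD. In this fit 3 of the 40 genes were called lower with Ento+AZD, against 19.6% of all genes.

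Without regard to any call, group values that did not overlap with DMSO were counted as well. With Ento, 11 of 40 genes lay wholly above DMSO and 0 below, against 8.07% and 7.08% of all genes. With AZD, 14 lay above and 0 below, against 11.7% and 12.7%, and with Ento+AZD 6 above and 2 below, against 19.1% and 20.0%. The 2 below were FBL and GAR1. In Ento+AZD, 0 genes lay wholly above and 3 below Ento, against 11.5% and 11.7% of all genes, and 0 above and 3 below AZD, against 9.12% and 7.99%.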

How the data were processed

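Poly-A RNA of SU-DHL-4 cells was sequenced as single reads. Per the labels and the study's methods, the authors trimmed the reads (TrimGalore, CutAdapt), mapped them to the genome build GRCh38.p13, and deposited raw counts per gene made with Rsubread. Strand setting, multimapping rule and annotation release are not given in the sources used here, so reads of a gene and of an overlapping opposite-strand gene (16 of the 40 genes have such an exon overlap in GENCODE) may be joined. A second deposited table, of log2 values made from the same counts, was not used.

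Counts of the 12 libraries were filtered with filterByExpr (minimum count 10, minimum total 15), leaving 16835 genes, and scaled by TMM. They were fitted with edgeR 4.0.16 in R 4.3.3 by a quasi-likelihood model without intercept, with treatment group and replicate number. The study's model had treatment group and batch, and its methods do not define the batch. Taking the replicate number as the batch was an assumption made here, and most calls depend on it. Calls had a Benjamini-Hochberg adjusted p under 0.05 over all genes. The scripts were run on simulated counts with known changes and a replicate effect shared by all groups. That run does not test whether the replicate term suits these libraries. Deviations of libraries with the same replicate number from their group means correlated at 0.213 to 0.703 over 18 pairs, and those of different numbers at -0.627 to 0.325 over 36, so the numbers were treated as pairing the libraries. The series' design text calls the replicates biological. The chi-square per degree of freedom between libraries of a group was 9.07 to 54.3, so none was a duplicate. Gene positions are from GENCODE (GRCh38) and promoters from RefSeq. Alternatives were DESeq2 1.42.0, other scaling, no filter, fits of 2 groups, left-out libraries and a GC offset. The genes and lists were chosen with earlier results of these data known. Values in every library are given for the genes with the smallest and largest p in each role group with Ento+AZD, the largest changes in each comparison and genes called in opposite directions.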

Additional observations from a re-analysis of the deposited data

How the results depend on the processing

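The pairing by replicate number decided most calls: without the replicate block, 46 of the 49 calls were lost. The counts without it were 0 with Ento, 0 with AZD, and 3 higher and 0 lower with Ento+AZD, and 0 lower in Ento+AZD against each single agent. Few of all genes were called then: 0.154% higher with Ento, 0.624% with AZD and 6.46% with Ento+AZD. Lower were 0.808% against Ento and 0.0178% against AZD. Among the other biogenesis genes 0, 2 and 13 were then called with Ento, AZD and Ento+AZD. With no filter on low counts, 17 genes were higher with Ento, 2 were higher in Ento+AZD than in Ento, 8 lower than in AZD, 11 had an interaction and 21 other biogenesis genes were called with Ento. Of all genes, 3.91% were then higher with Ento, 5.03% higher against Ento, 4.39% lower against AZD and 0.508% lower in the interaction. In fits of only the 2 groups compared, the counts were 13 higher with Ento and 8 with Ento+AZD, 1 higher against Ento and 8 lower against AZD. The shares of all genes there were 4.26%, 14%, 11.7% and 9.02%. With library totals alone, 6 genes were lower with Ento+AZD, where 24.1% of all genes were, and 7 other biogenesis genes were called with Ento. DESeq2 gave 1 higher against Ento and 5 lower against AZD, where 7.63% and 6.16% of all genes were called. A GC offset, added after seeing the data, gave 1 higher against Ento, where 12.8% of all genes were.

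When single libraries, or all libraries of a replicate number (added after seeing the data), were left out, the count of genes higher was 0 to 20 with Ento, 2 to 26 with AZD and 3 to 27 with Ento+AZD, with 1 to 4 lower. It was 0 to 6 higher and 0 to 3 lower against Ento and 0 to 8 lower against AZD, 0 to 9 for the interaction, and 0 to 1 past 2-fold with Ento+AZD. Other biogenesis genes numbered 0 to 22 with Ento, 4 to 58 with AZD, 17 to 46 with Ento+AZD, 1 to 15 against Ento, 0 to 7 against AZD and 0 to 6 for the interaction. Without all libraries of replicate 3, 2 genes remained with AZD, where 1.94% of all genes were called higher. Over the left-out fits the share of all genes called higher also varied. It ran from 1.5 to 5.53% with Ento, 1.94 to 10.7% with AZD and 12.5 to 18.7% with Ento+AZD. The causes were not tested. No called gene changed direction in any alternative, and the medians against DMSO stayed above 0, whereas those of Ento+AZD against Ento and AZD ran from -0.10 to 0.05 and from -0.22 to 0.02, and that of the interaction from -0.51 to -0.22. With 3 libraries a group, standard errors of 0.07 to 0.18 on the log2 scale between groups and 0.10 to 0.25 for the interaction limit what can be called.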
